A study of Homo sapiens with 4 samples.

Results

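The core spliceosome protein genes are the genes that encode the protein parts of the machine that removes introns from nuclear RNA. Members were taken by gene symbol from the transcript table of a YTHDC1 RNA-immunoprecipitation experiment (RIP-seq), as symbols beginning with SNRP, SNRNP, LSM, SF3A, SF3B, PRPF or U2AF1 and U2AF2, without transcripts annotated as pseudogenes. This gave 279 of the 75165 listed transcripts, from 57 of the 20298 listed genes. All 57 are protein-coding genes. The rule itself uses symbols and annotation only, although this gene family was picked with earlier results of these data known.

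RIP-seq recovers the RNA that comes down with an antibody against a protein and sets it beside lysate RNA from the same cells. MDA-MB-231, a triple negative breast cancer cell line, was transduced by lentivirus with 3xFlag-tagged YTHDC1 at a multiplicity of infection of 4 and kept in 2 μg/ml puromycin for 4 days, so all libraries came from cells that overexpress the tagged protein. The cells were exposed to UV light 3 times, nuclei were isolated and sonicated, and anti-Flag antibody (5 μg) was used on lysate holding 500 μg of protein, while 50 μg was saved as input. There were 2 IP and 2 input libraries, all of nuclear RNA, from which ribosomal RNA was depleted before the libraries were made. In the same table, VIM, the mesenchymal intermediate filament gene, had a summed mean normalized count of 80785, CDH1, which encodes E-cadherin, had 10.04 in 1 transcript, and no ESR1 (estrogen receptor) transcript was analysed here.

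The one measurement used here is the authors' mean normalized count of each transcript over the IP and the input libraries together. It does not separate IP from input, has no value for a single library and therefore no replicate error, and how deeply each library was sequenced is unknown. No comparison of IP with input is given. The table holds the authors' own comparison, which was not used, and a separate one would need values per library. Every value below thus describes the RNA in the IP and input pooled, and no difference was tested. The mean normalized counts are not divided by transcript length, so levels are compared between transcripts of the same gene, and ranges, totals and sums over several genes are descriptions in which longer and more abundant genes weigh more. Within a gene too, a longer transcript collects more reads, and reads that fit several isoforms were divided among them by an estimate.

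The spliceosome is assembled on each intron from small nuclear ribonucleoprotein particles (snRNPs), each made of a small nuclear RNA and its proteins. U1 marks the 5′ splice site, U2 with the SF3A and SF3B complexes binds the branch point after U2AF has read the end of the intron, and the U4/U6.U5 particle then brings in the parts that form the catalytic centre. Most snRNPs are built on a ring of Sm proteins, while U6 carries a ring of LSm proteins. Many genes of splicing proteins also make transcripts that keep an intron or carry an early stop codon, which makes the annotated type of each transcript of interest in nuclear RNA. The types used here are those of the GENCODE annotation: protein-coding, retained intron, nonsense-mediated decay (an open reading frame whose early stop marks the RNA for degradation), processed transcript (no open reading frame assigned) and non-stop decay. Whether reads counted in retained-intron transcripts came from nuclear RNA not yet spliced was not tested.

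Of the 279 member transcripts, 136 were annotated as protein-coding (48.7%), 71 as retained intron (25.4%), 45 as processed transcript (16.1%), 26 as nonsense-mediated decay (9.32%) and 1 as non-stop decay. The mean normalized counts were less evenly spread. Protein-coding transcripts held 85.5% of the members' summed mean normalized counts, retained-intron transcripts 7.995%, nonsense-mediated decay transcripts 4.27% and processed transcripts 2.22%. The summed counts of the members made up 0.572% of the whole table. Single transcripts ranged from 3.66 for the lowest to 26150 for PRPF8-205, with a median of 69.6.

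For comparison, the 10949 genes with a listed protein-coding transcript and a gene total (the sum over a gene's listed transcripts) of at least 100 were described in the same way. This set includes 54 of the members and leaves out LSM5, for its low total, and SNRNP27 and U2AF1, which have no listed protein-coding transcript. In it, 58.7% of the listed transcripts were protein-coding and 18.0% were of the retained-intron type, and these held 87.8% and 4.15% of the summed mean normalized counts. The retained-intron share of the members, at 7.995%, thus lay above the 4.15% of the compared genes. Of the members' retained-intron counts, however, SNRNP200 held 28.4%, SF3B3 15.7% and PRPF8 14.0%. Without SNRNP200 the members' share was 6.28%, and without PRPF8 it was 8.41%, both choices made after seeing the data. Together SNRNP200, SF3B3 and PRPF8 held most of the members' retained-intron counts. The share without all of them was not computed, so how far the difference rests on these genes was not tested. Counted by gene, 27 of the 57 members had a listed retained-intron transcript. Of the 54 members within the compared set, 25 had one (46.3%), close to the 45.2% of the compared genes, and the median share within a gene was 0 in both. Such transcripts held at least 25% of the gene total in 6 members. Of the 54 these were 5 (9.26%), against 5.91% of the compared genes.

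**Figure D1:**
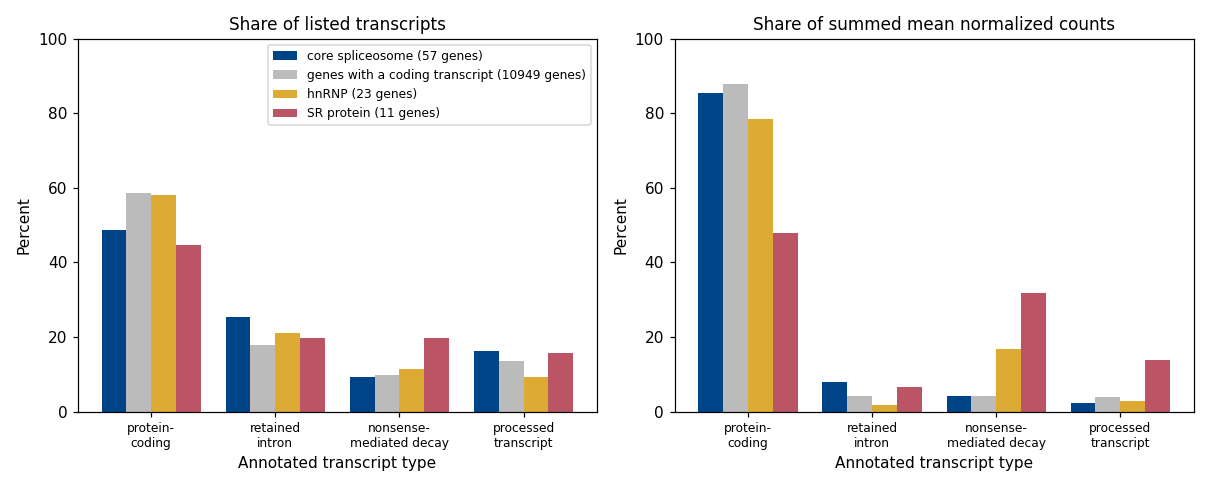
Shares of 4 annotated transcript types, in percent, among listed transcripts (left) and among summed mean normalized counts (right), for the core spliceosome protein genes, genes with a listed protein-coding transcript and a total of at least 100, hnRNP genes and SR protein genes. The core spliceosome bars stand at 85.5% protein-coding and 7.995% retained intron on the right, and the SR protein bar for nonsense-mediated decay stands at 31.8%.

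Other splicing proteins are given beside the members as a description. In the 11 SR protein genes, which encode activators of splicing known for their poison exons, nonsense-mediated decay transcripts held 31.8% of the summed mean normalized counts and protein-coding transcripts 47.8%. Their median shares within a gene were 11.4% and 56.3%, and without SRSF2, which held most of these decay counts, the summed shares were 16.1% and 58.1%. In the 23 genes of heterogeneous nuclear ribonucleoproteins (hnRNPs), which coat nascent RNA, the nonsense-mediated decay share of the summed counts was 16.8% and the protein-coding share 78.5%. The medians within an hnRNP gene were 0 and 89.7%, and without HNRNPU the summed shares were 10.05% and 85.3%. The members stood at 4.27% and 85.5%, near the 4.03% and 87.8% of the compared genes, with medians within a gene of 0 and 93.1%. The median nonsense-mediated decay share was thus 0 in both hnRNP genes and members, while its upper quartile was 9.54% in hnRNP genes and 1.88% in members. In the members, PRPF4B alone held 73.4% of the nonsense-mediated decay counts, and without it the share was 1.17%. Retained-intron transcripts held 6.55% of the summed counts in SR protein genes and 1.82% in hnRNP genes, against 7.995% in the members. Their median share within a gene was 3.24% in SR protein genes and 0 in both hnRNP genes and members. The plot of transcript types beside other genes sets the summed shares side by side.

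A member gene had a median of 5 listed transcripts, as did the compared genes. The most abundant transcript held a median of 69.8% of the gene total (quartiles 50.5% and 87.8%), against 62.7% (quartiles 46.4% and 84.2%) in the compared genes. In 50 of the 57 genes that leading transcript was protein-coding. The other 7 genes were led by another type. Of the 54 members within the compared set these were 5 (9.26%), near the 10.4% of the compared genes. These 7 were SNRNP27 and PRPF4B, led by nonsense-mediated decay transcripts, LSM1, LSM2 and PRPF38A, led by processed transcripts, and U2AF1 and LSM12, led by retained-intron transcripts.

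**Figure D2:**
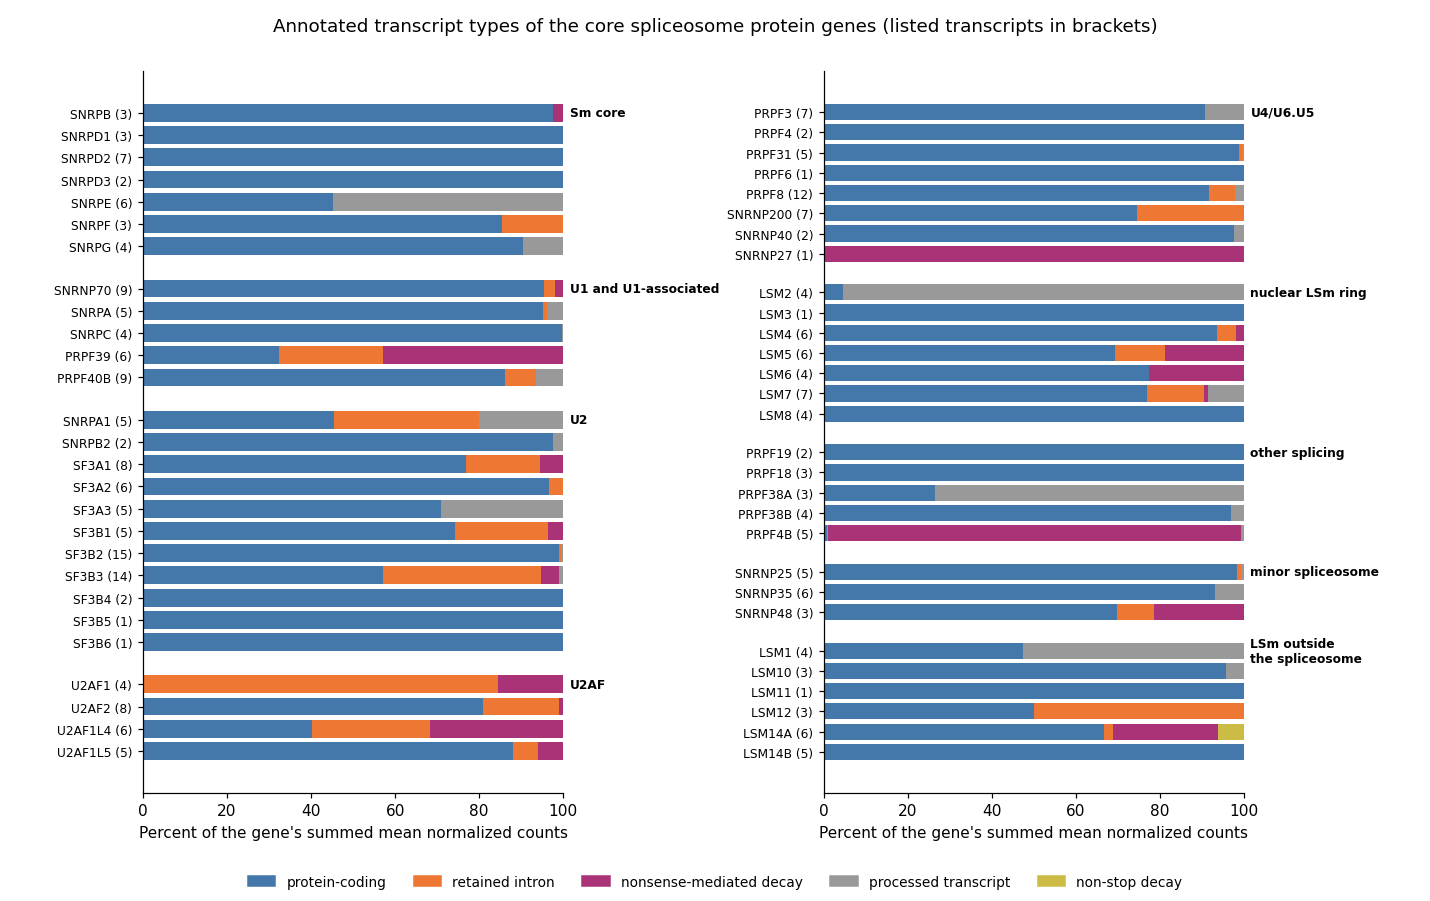
Percent of each gene's summed mean normalized counts held by each annotated transcript type, 1 bar for each of 56 of the 57 genes, grouped by the particle their proteins belong to, with the number of listed transcripts in brackets. PRPF4B and SNRNP27 are almost or fully nonsense-mediated decay, LSM2 is 95.4% processed transcript, and U2AF1 has no protein-coding part.

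The Sm proteins form the ring around which most snRNPs are built. The 7 Sm genes measured had 28 listed transcripts, 21 of them protein-coding, and protein-coding transcripts held 97.5% of their summed mean normalized counts. SNRPB, which encodes the SmB and SmB′ proteins, had nearly even main forms, SNRPB-202 at 3230 and SNRPB-201 at 2688, both protein-coding, and the nonsense-mediated decay form SNRPB-203 at 142. SNRPD2 was the most divided of the genes with coding forms alone. It had 7 protein-coding transcripts, led by SNRPD2-203 at 1550, SNRPD2-204 at 972 and SNRPD2-208 at 906, so that the leading form held 39.1% of the gene. SNRPD1 (gene total 441) and SNRPD3 (419) were likewise protein-coding throughout.

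SNRPE was the exception in this group, with 54.8% of its small total of 159 in 4 processed transcripts. The leading transcript SNRPE-202, protein-coding, stood at 44.4, and the processed transcript SNRPE-205 at 37.4. A pseudogene of SNRPE, SNRPEP4, was listed at 25.3, and reads could be divided between the gene and its copy. SNRPF had a retained-intron transcript, SNRPF-202, at 32.5 beside the coding SNRPF-201 at 163. In SNRPG, the processed transcript SNRPG-203 held 9.66% of the gene total. A further Sm gene, SNRPN, was not analysed here.

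SNRNP70, SNRPA and SNRPC are proteins of the U1 particle, which marks the 5′ splice site. Their genes were mainly protein-coding, at 95.5%, 95.2% and 99.7% of the gene total. SNRNP70 had 9 listed transcripts, among them SNRNP70-201 at 4012 and SNRNP70-206 at 3433, which lay within a factor of 1.5 of each other. Its 3 nonsense-mediated decay transcripts together held 1.88% and its 3 retained-intron transcripts 2.62%. Among the U1-associated factors, PRPF40B had 9 listed transcripts and was 86.1% protein-coding.

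PRPF39, an alternative splicing factor that joins U1, differed from the rest of this group. Protein-coding transcripts held 32.3% of its total of 265, nonsense-mediated decay transcripts 42.9% and retained-intron transcripts 24.8%. The leading transcript was the protein-coding PRPF39-204 at 81.1, followed by the nonsense-mediated decay forms PRPF39-207 at 63.6 and PRPF39-202 at 50.0 and the retained-intron form PRPF39-211 at 44.2. A nonsense-mediated decay share at least as large was found in 5.07% of the 11042 genes annotated as protein-coding with a total of at least 100.

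The U2 group, 11 genes, included several with large retained-intron shares. Over the group, 24 of 64 listed transcripts were of this type, in 6 genes, and they held 10.6% of the summed mean normalized counts. The median share within a gene of the group was 0.676%. In the compared genes, 18.0% of the listed transcripts were of this type and 45.2% of the genes had one. SF3B3, a scaffold of the SF3B complex, had 14 listed transcripts, of which 6 were of the retained-intron type and together held 37.6% of the gene. Its coding form SF3B3-201 stood at 3344, and the retained-intron forms SF3B3-208, SF3B3-204 and SF3B3-206 followed at 747, 731 and 628. A share as large was found in 3.15% of the 11042 genes.

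SF3B1, which holds the branch point and is mutated in several cancers, was 74.2% protein-coding through SF3B1-201 alone, at 4482. Its retained-intron forms SF3B1-207 at 1172 and SF3B1-210 at 171 gave 22.2% of the gene total. A share as large was found in 6.94% of the 11042 genes. In SF3A1, a subunit of SF3A, coding forms SF3A1-201 at 2965 and SF3A1-203 at 1856 stood above the retained-intron form SF3A1-207 at 609. Retained-intron forms held 17.5% of SF3A1, a share reached by 8.85% of the 11042 genes. By contrast SF3B2, the SF3B subunit with most listed transcripts (15), was 98.9% protein-coding, with SF3B2-201 at 14177, and its retained-intron forms together held 0.676%. SF3B4 was also protein-coding throughout, and SF3B5 (1310) and SF3B6 (280) each had 1 listed transcript, a protein-coding one.

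SNRPA1, which encodes a protein bound to a stem of U2 snRNA, had less than 50% of its total in protein-coding transcripts. SNRPA1-201, protein-coding, stood at 503, the retained-intron SNRPA1-209 at 382 and the processed transcript SNRPA1-202 at 228. The gene lies on chromosome 15, 101281510 to 101295248 (GRCh38). Retained-intron transcripts held 34.5% of it. Its partner SNRPB2 was 97.6% protein-coding, in SNRPB2-202 at 436. SF3A3, a further SF3A subunit, had 29.2% of its total in processed transcripts, most of it in SF3A3-204 at 651, just under the limit of 25% set for naming such transcripts.

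U2AF is a dimer whose large subunit, U2AF2, binds the pyrimidine-rich stretch before the 3′ splice site and whose small subunit, U2AF1, reads the splice site itself. U2AF2 (chromosome 19, 55655035 to 55674716) had protein-coding forms U2AF2-202 at 4984, U2AF2-201 at 2982 and U2AF2-206 at 839, and the retained-intron form U2AF2-205 stood at 1884. Retained-intron transcripts held 18.1% of the gene, a share reached by 8.59% of the 11042 genes.

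U2AF1 (ENSG00000160201.11, chromosome 21, 43092956 to 43107578) had no listed protein-coding transcript. Its 4 listed transcripts were the retained-intron forms U2AF1-210 at 53.2, U2AF1-209 at 48.2 and U2AF1-212 at 28.1, and the nonsense-mediated decay form U2AF1-206 at 23.8. The coding forms were found under U2AF1L5 (ENSG00000275895.7), annotated as a separate gene whose sequence is nearly identical to that of U2AF1. U2AF1L5-201 stood at 575 and U2AF1L5-202 at 321, both protein-coding, and protein-coding transcripts held 88.1% of that gene. Reads cannot be told apart between near-identical copies, so the split of 13.1% and 86.9% of the pair's counts between U2AF1 and U2AF1L5 is uncertain. Taken as a pair, the genes had 9 transcripts with a summed mean normalized count of 1171, of which 76.5% was protein-coding, 16.2% retained intron and 7.24% nonsense-mediated decay. U2AF1L4, a shorter relative, had a total of 103 and a mixed make-up, 40.2% protein-coding, 31.6% nonsense-mediated decay and 28.2% retained intron.

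**Figure D3:**
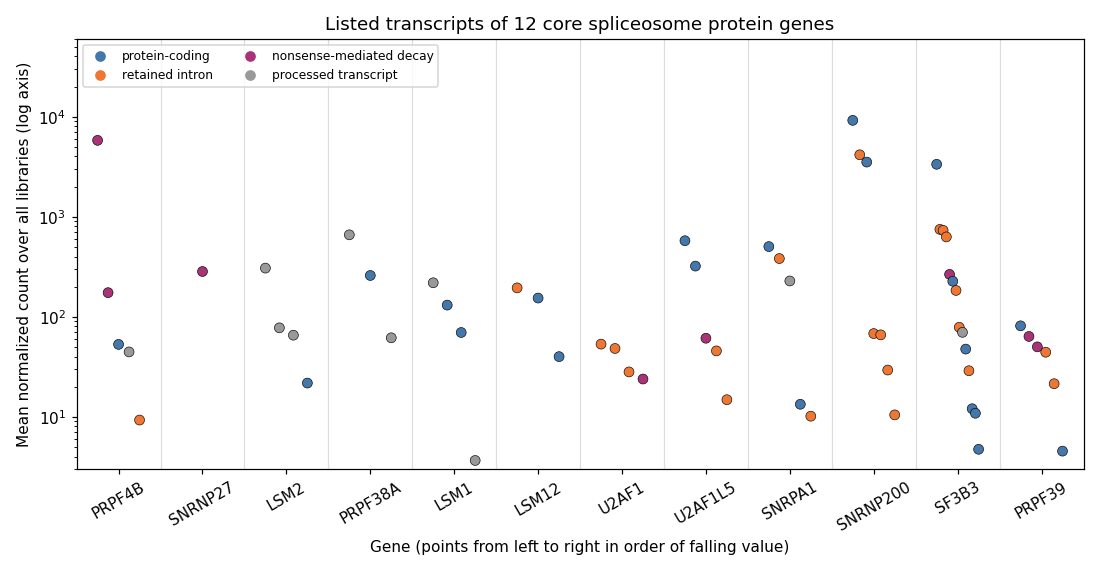
Mean normalized count of each listed transcript (log axis, pooled over IP and input) in 12 of the genes, 1 point for each transcript, coloured by annotated type. The nonsense-mediated decay transcript PRPF4B-205 stands at 5801 above all other PRPF4B transcripts, and U2AF1 has 4 points, none protein-coding, beside the coding points of U2AF1L5 at 575 and 321.

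The U4/U6.U5 proteins bring in the catalytic parts. PRPF8, the protein at the heart of the active site, had 12 listed transcripts, led by PRPF8-205 at 26150 and PRPF8-201 at 5231, both protein-coding. Its 6 retained-intron transcripts, headed by PRPF8-213 at 1186 and PRPF8-206 at 736, held 6.13% of the gene. SNRNP200, the helicase that unwinds U4 from U6, differed. Its coding forms SNRNP200-209 and SNRNP200-201 stood at 9193 and 3517.5, and the retained-intron form SNRNP200-208 lay between them at 4160. That single transcript held 24.4% of the gene, and all retained-intron forms held 25.4%, a share reached by 5.81% of the 11042 genes. The gene lies on chromosome 2, 96274338 to 96305546.

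The other members of this particle were simpler. PRPF6, which bridges U5 and U4/U6, had 1 listed transcript, PRPF6-201, at 10820. PRPF4 was protein-coding throughout, with PRPF4-201 at 2038, and PRPF31, which binds U4 snRNA and is known from inherited retinal disease, was 98.8% protein-coding, with PRPF31-201 at 4413. PRPF3 had 6 processed transcripts beside its coding form PRPF3-201 at 3308, and they held 9.23%. SNRNP40 was 97.5% protein-coding.

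SNRNP27 (ENSG00000124380.11, chromosome 2, 69893956 to 69905236) encodes a small tri-snRNP protein. It had 1 listed transcript, SNRNP27-203 (ENST00000450162.6), annotated as nonsense-mediated decay, at 284. It and U2AF1 were the members without a listed protein-coding transcript, 2 of 57 genes (3.51%), against 0.924% of the 11042 genes annotated as protein-coding. Among the members with a total of at least 100 the share was 3.57%. With U2AF1 and its near-identical copy counted as 1 gene, SNRNP27 alone remained, 1 of 56 (1.79%). Of the 23 hnRNP genes, 2 (8.70%) had no listed protein-coding transcript. A nonsense-mediated decay share of 100%, as in SNRNP27, was found in 0.561% of the 11042 genes.

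The LSm ring of LSM2 to LSM8 binds the end of U6 snRNA. Processed transcripts held 10.96% of the summed mean normalized counts of its 7 genes, more than in any other group, and most of this came from LSM2. LSM2 (ENSG00000204392.11, chromosome 6, 31797396 to 31806966) had the processed transcripts LSM2-209 at 306, LSM2-210 at 77.5 and LSM2-214 at 65.4, and the coding form LSM2-208 at 21.7. Its processed-transcript share of 95.4% was reached by 11 of the 11042 genes. LSM3 had 1 listed transcript, a protein-coding one at 469, and LSM8, the member that keeps the ring in the nucleus, had 4 protein-coding transcripts between 26.1 and 93.8. LSM4 was 93.6% protein-coding, with LSM4-201 at 2019.

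LSM5, LSM6 and LSM7 were mixed. In LSM5 (total 68.4, the only member under 100) the 6 listed transcripts ranged from 6.13 to 17.8, and nonsense-mediated decay held 18.9%. In LSM6 the nonsense-mediated decay form LSM6-204 stood at 30.5 beside the coding forms LSM6-208 at 53.7 and LSM6-202 at 33.9. LSM7-201, protein-coding, stood at 605, with the retained-intron form LSM7-206 at 106. At such low values the shares of LSM5 and LSM6 rest on few reads. The same limit holds for U2AF1L4, U2AF1, SNRPE and SNRNP48, with totals from 103 to 170.

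Outside these particles, PRPF4B stood apart. PRPF4B (ENSG00000112739.17), a kinase that phosphorylates proteins of the tri-snRNP, had 98.2% of its total of 6082 in nonsense-mediated decay transcripts. PRPF4B-205 (ENST00000480058.5), of this type, stood at 5801, PRPF4B-206, also of this type, at 174, the coding form PRPF4B-201 at 52.9, the processed transcript PRPF4B-207 at 44.5 and the retained-intron form PRPF4B-203 at 9.27. The leading form thus held 95.4% of the gene. Nonsense-mediated decay shares this high were found in 63 of the 11042 genes (0.571%). Of these, 62 had all of their counts in such transcripts. The isoforms of a gene share most of their exons, so such a share depends on how shared reads were assigned, which was not tested.

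PRPF38A, needed to activate the assembled spliceosome, was led by the processed transcript PRPF38A-202 (ENST00000474048.1) at 659, against 258 for the coding form PRPF38A-201. The gene lies on chromosome 1, 52404602 to 52420836. Processed transcripts held 73.6% of it, a share reached by 0.697% of the 11042 genes. Its relative PRPF38B was 96.8% protein-coding. PRPF19, a ubiquitin ligase of the active spliceosome, with PRPF19-201 at 2968, and PRPF18, a factor of the second catalytic step, with PRPF18-202 at 288, had protein-coding transcripts alone.

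The 3 genes of the minor spliceosome, which removes a rare class of introns, were 93.9% protein-coding over their summed counts. SNRNP25-202 at 1011 and SNRNP35-201 at 566 led their genes. SNRNP48 (total 170) had the nonsense-mediated decay form SNRNP48-203 at 36.5 beside the coding SNRNP48-201 at 119.

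The symbols also bring in 6 LSm proteins that work outside the spliceosome. LSM1, which replaces LSM8 in the cytoplasmic ring that promotes mRNA decay, was led by the processed transcript LSM1-204 at 219, above the coding LSM1-203 at 131 and LSM1-201 at 69.6. In LSM12 the retained-intron form LSM12-203 stood at 194 and the coding forms LSM12-201 and LSM12-202 at 154 and 39.9, so that the gene was divided almost evenly, 50.1% to 49.9%. A processed pseudogene of it, LSM12P1, was listed at 230, and reads could be divided between gene and copy here too. LSM14A, a protein of processing bodies, had the nonsense-mediated decay form LSM14A-207 at 273, 24.98% of its total, and was the only member with a non-stop decay transcript. LSM14B was protein-coding throughout. LSM10 and LSM11, of the U7 particle that trims histone mRNA, were 95.6% and 100% protein-coding.

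Of the transcripts that are not protein-coding, 9 held at least 25% of their gene's total. From the highest share to the lowest these were SNRNP27-203, PRPF4B-205, PRPF38A-202, LSM2-209, LSM1-204, LSM12-203, U2AF1-210, SNRPA1-209 and U2AF1-209. The last of them held 31.4%, and the next below the limit was LSM14A-207 at 24.98%, followed by SNRNP200-208 at 24.4% and PRPF39-207 at 24.0%. By group, protein-coding transcripts held most of the summed mean normalized counts in the Sm core (97.5%), U1 (94.7%) and the minor spliceosome (93.9%), less in U4/U6.U5 (89.3%), U2 (85.6%), the LSm ring (81.8%) and U2AF (80.1%), and 43.5% in the remaining splicing factors, where PRPF4B lies.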

How the data were processed

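The labels name 4 libraries of MDA-MB-231 cells, 2 IP and 2 input. Reads were mapped by the authors with STAR (version 2.7.2b) to a transcriptome with GENCODE release 33 annotation (GRCh38) and estimated per transcript with RSEM (version 1.2.31). Low transcripts were dropped: the authors required 5 or more reads in 50% or more of the samples, then applied RUVSeq and DESeq2. RSEM shares ambiguous reads between isoforms. The signal value used, the mean normalized count over all libraries, was deposited by the authors. The table also holds the authors' log2 fold change, its standard error, p-value and adjusted p-value, which were not used. Without values per library, the planned edgeR test was not run.

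Counts were summed per gene identifier, and shares taken within genes. Transcripts that are not protein-coding were named from 25% of a gene. 1 member is not reported on its own here. Positions came from RefSeq by symbol for 55 of 57 genes. Members and lists were chosen with earlier results of these data known. Summaries were made with pandas 2.3.3 in python 3.11.15, correlations and intervals with scipy 1.17.1 and figures with matplotlib 3.10.9, after tests on simulated data.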

Additional observations from a re-analysis of the deposited data

How the results depend on the processing

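No error could be attached to any value, and no interval from depth can be given. No paired analysis was possible because the table has no values per library, and leaving out each replicate, another normalization and the replicate block were not run for the same reason. Gene totals per kilobase of coding sequence were not run for want of coding lengths. Shares with no interval were read as moved when they changed by more than 1.5 times, and shares of listed transcripts when they left their 95% Wilson interval. That interval counts listed transcripts as independent, which transcripts of the same gene are not. It served only as a limit for this reading and is not an error of the shares. Of 54 alternatives, 42 left a value within these limits. With a minimum mean normalized count of 100, 123 member transcripts of 50 genes remained, 71.5% of them protein-coding, 14.6% retained intron and 5.69% processed transcript. As a median over genes, the shares of retained intron, nonsense-mediated decay and processed transcript were each 0. Without PRPF4B, chosen after seeing the data, nonsense-mediated decay held 1.17%. Over all listed genes the median number of transcripts per gene was 2. Limiting the compared genes to totals of at least 1000, also chosen after seeing the data, gave a median of 6 transcripts per gene and a retained-intron share of 4.05%, against 8.13% in the 30 members of that size. Further choices made after seeing the data gave nonsense-mediated decay shares of 16.1% in SR protein genes without SRSF2 and 10.05% in hnRNP genes without HNRNPU. The share of members without a listed protein-coding transcript became 1.79% with U2AF1 and U2AF1L5 as 1 gene. The 54 members within the compared set were also chosen afterwards.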

Other observations

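The number of listed transcripts followed the gene total in the members (Spearman's rho 0.39 over 57 genes) much as in the 10949 compared genes (0.36), as a description across genes, which share the same libraries and the same filter on low reads and whose totals are not divided by length. The retained-intron share of a gene was nearly unrelated to its total, with a rho of 0.11 in the members and 0.14 in the compared genes. The other pseudogene rows with matching symbols, left out of the members, were SNRPCP19 at 13.8, SNRPFP1 at 12.5 and SNRPCP1 at 5.04.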
